A study of Rattus norvegicus with 10 samples.

Results

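The genes described here mark the base of the intestinal crypt, where stem cells divide and supply the cells of the villus: Lgr5, Olfm4, Ascl2, Sox9, Cd44, Prom1, Myc, Axin2 and Ephb2. They were chosen by gene symbol, as every probe set of the array whose platform annotation names one of these 9 genes alone. A probe set is a group of short probes that are read together as 1 value. Of the 9 genes, 6 had such a probe set (Lgr5, Ascl2, Cd44, Prom1, Myc and Axin2), and these 6 genes gave 7 of the 29559 probe sets in the table, because Cd44 had 2. Olfm4, Sox9 and Ephb2 were not analysed here.

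The tissue was jejunum of male Sprague Dawley rats that were dosed orally for 5 days. Rats received vehicle (3 rats, 10 ml/kg/day of hydroxypropylmethylcellulose, HPMC, at 0.2%) or A-998679 at 30 mg/kg/day (2 rats), 100 mg/kg/day (3 rats) or 200 mg/kg/day (2 rats). A-998679 is a compound whose action on the aryl hydrocarbon receptor (AhR) was under study. RNA of each rat was read on 1 Affymetrix RAE230 2.0 array, and rat 3 of the 30 and 200 mg/kg groups was not analysed here. Values are log2 intensities, so a difference of 1 is a doubling, and the median of the arrays lay between 5.86 and 5.90. The sample is a piece of gut wall that holds muscle, nerves, immune cells and villus epithelium beside the crypts, so fewer cells of a type and less RNA per cell cannot be told apart.

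As background, crypt stem cells are kept by Wnt signals from the Paneth cells between them and from the tissue below. Wnt binds Frizzled and Lrp receptors, R-spondin bound to Lgr5 or Lgr4 strengthens the signal, and beta-catenin then works with TCF/LEF factors to switch on target genes. Axin2, Ascl2, Lgr5, Myc, Cd44, Sox9 and Ephb2 are all known targets of this pathway in the gut. Notch keeps cells in the dividing state, and BMP signals from the villus side oppose the stem cell state.

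The promoters of Axin2 and Cd44 are shown because, among the genes found in the promoter table, only these held a match to a TCF/LEF motif in the 250 bases before the start. The motif was searched on both strands as CTTTGAA or CTTTGAT or CTTTGTA or CTTTGTT, and matches are in capitals. The sequences are RefSeq's, build GRCr8, given 5′ to 3′ on the strand of the gene, at chr10:94398535-94398784 (forward strand) for Axin2 and chr3:109699425-109699674 (reverse strand) for Cd44.
Axin2: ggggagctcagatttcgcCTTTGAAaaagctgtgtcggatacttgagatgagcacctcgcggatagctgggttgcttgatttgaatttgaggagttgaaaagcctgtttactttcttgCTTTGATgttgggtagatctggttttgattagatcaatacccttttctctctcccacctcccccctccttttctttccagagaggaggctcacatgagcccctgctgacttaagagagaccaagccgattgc
Cd44: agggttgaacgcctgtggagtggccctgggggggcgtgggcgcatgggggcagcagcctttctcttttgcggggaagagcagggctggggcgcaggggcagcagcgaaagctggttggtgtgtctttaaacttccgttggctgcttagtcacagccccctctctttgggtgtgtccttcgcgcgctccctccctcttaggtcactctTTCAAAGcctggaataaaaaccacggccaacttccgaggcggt

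Axin2 held 2 matches, 232 and 132 bases before the start, and Cd44 held 1 on the other strand, 43 bases before it. The windows of Olfm4, Ascl2, Prom1 (2 windows) and Ephb2 held none. Of all 33469 windows of this length, 14.89% held at least 1 match. The core of the element that AhR binds, GCGTG, was found on either strand 2 times in Ascl2, 1 time in Cd44 and 2 times in Ephb2, and in 25.89% of all windows. These matches describe letters in a window and not binding.

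No probe set of the crypt base genes passed the test at any dose. The 6 probe sets bright enough to be tested were compared with limma across all 10 arrays. P-values were adjusted by Benjamini-Hochberg over every tested probe set, and those with an adjusted p of 0.05 or less count as called. Called were 0 of 6 at 30 mg/kg, 0 of 6 at 100 mg/kg and 0 of 6 at 200 mg/kg against vehicle, against a background of 0.0113%, 0.0113% and 0.0226% of all probe sets tested. Between 200 and 100 mg/kg none of the 6 was called either (background 0.0226%), and none by the moderated F test over the 3 doses (background 0.0453%), where the lowest adjusted p of the 6 in limma was 0.335. With so few calls in all, a count of 0 of 6 does not set these genes apart. At an unadjusted p of 0.05 or less limma picked 1 of the 6, Lgr5 at 100 mg/kg, where it picked 3192 of all probe sets (18.0%). A standard t-test, which the study's methods name for general statistics and not for the arrays, picked 0 of the 6 in each of the 4 comparisons, also without adjustment. Vehicle rat 1 stood apart from the other vehicle rats (its smooth muscle score, the mean log2 value of 13 muscle genes minus that of vehicle, was -0.52, against 0.24 and 0.28). Without it limma called 2219 of the 17682 probe sets tested at 100 mg/kg and still 0 of the 6. In that limma fit the log2 fold changes were -0.77 for Lgr5 (adjusted p = 0.079), -0.90 for Axin2 (adjusted p = 0.0812) and -0.73 for Prom1 (adjusted p = 0.0722). Vehicle rat 1 was the lowest vehicle rat for each of these genes, so leaving it out could only widen their differences. Limma called 3 of 17698 probe sets at 100 mg/kg without vehicle rat 2, and 1 of 17694 without vehicle rat 3. With each rat left out in turn, the differences nearest 0 were -0.43 for Lgr5, -0.27 for Axin2 and -0.36 for Prom1.

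Most of the 6 had a mean below vehicle at each dose, by differing amounts. At 100 mg/kg, 5 of 6 probe sets had a mean below vehicle, with a median log2 fold change of -0.41, and at 200 mg/kg 6 of 6 did, with a median of -0.12. At 30 mg/kg 4 of 6 were below vehicle and the median was -0.04. Over all probe sets 48.5%, 48.9% and 49.1% were below vehicle at 30, 100 and 200 mg/kg. All 3 comparisons share the same 3 vehicle rats.

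**Figure D1:**
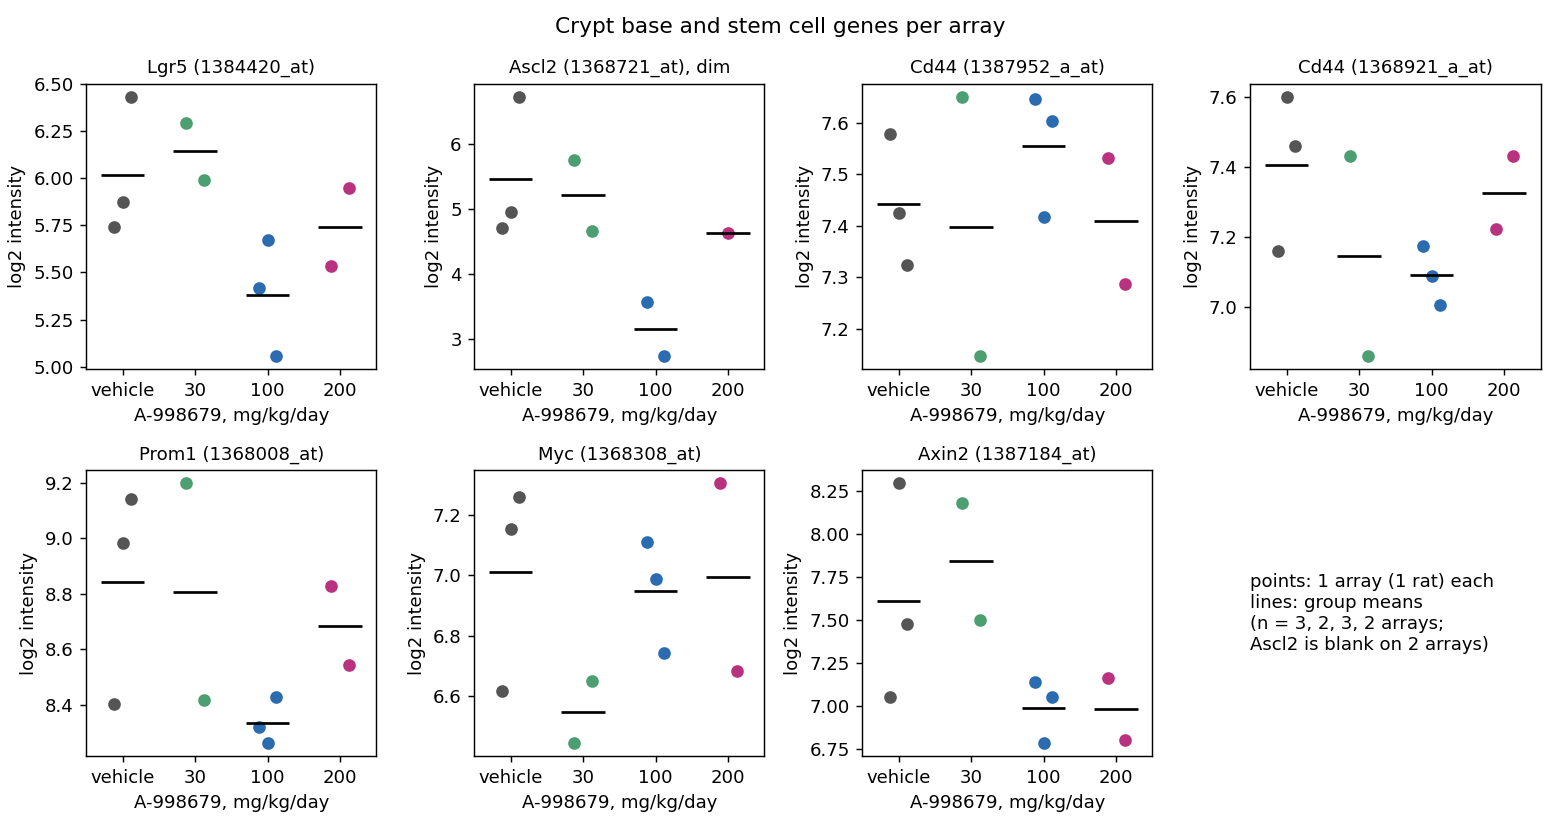
Log2 intensity (y axis) of the 7 probe sets in each array, by dose in mg/kg/day (x axis); points are rats and black lines are group means. Lgr5 lies lower in the 3 rats at 100 mg/kg (5.06 to 5.67) than in every vehicle rat (5.74 to 6.43), and the other tested probe sets overlap with vehicle at each dose.

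Lgr5, the R-spondin receptor that marks the cycling stem cells, was the only tested probe set of the 6 without overlap with vehicle at 100 mg/kg. Lgr5 was also the dimmest of the 6, with a mean of 5.80 over all arrays, under the lowest array median of 5.86. Its probe set (1384420_at) read 5.74, 5.87 and 6.43 in vehicle rats, 6.29 and 5.99 at 30 mg/kg, 5.42, 5.67 and 5.06 at 100 mg/kg, and 5.54 and 5.95 at 200 mg/kg. All 3 rats at 100 mg/kg were therefore below the lowest vehicle rat, as was rat 1 of the 200 mg/kg group, while the other rats lay within the vehicle range. The log2 fold change of Lgr5 at 100 mg/kg was -0.63 (SE 0.24, 95% interval -1.17 to -0.10), which did not pass in limma (adjusted p = 0.236). Lgr5 differed from vehicle by 0.13 at 30 mg/kg (SE 0.26) and by -0.27 at 200 mg/kg (SE 0.26), and between 200 and 100 mg/kg by 0.36 (SE 0.26, adjusted p = 0.943 in limma).

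Lack of overlap was not unusual among all probe sets. Lower in every 100 mg/kg rat than in every vehicle rat were 1 of the 6 (Lgr5), against 13.5% of all probe sets. Higher in every 100 mg/kg rat were 0 of 6, against 11.5% of all. At 30 mg/kg 0 of 6 were higher (7.39% of all) and 0 of 6 lower (9.37% of all), and at 200 mg/kg 0 of 6 were higher (12.4% of all) and 0 of 6 lower (13.1% of all).

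Ascl2, the transcription factor that drives the stem cell programme, was dim. Its probe set (1368721_at) was among the 40% with the lowest mean, so it was outside the tested set, and it was blank on 2 arrays. It read 4.70, 4.95 and 6.72 in vehicle rats, 5.75 and 4.66 at 30 mg/kg, 3.57 and 2.73 at 100 mg/kg (rat 3 was blank), and 4.63 at 200 mg/kg (rat 2 was blank). Both values at 100 mg/kg were below every vehicle value, and the lower (2.73) was under the 10th percentile of all values (3.18). The shares of probe sets without overlap given above cover only the tested set, so none applies to Ascl2. The means of Ascl2 differed from vehicle by -2.31 at 100 mg/kg over 2 rats, and by -2.15 with blanks and low values set to a floor of 3.18, the 10th percentile of all values. With a pseudocount of 16 added to the linear intensity the difference was -1.31. Vehicle rat 3 was high, and without it the difference was -1.68.

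Axin2, a negative regulator of Wnt that is itself a direct Wnt target, was lower on average at the 2 upper doses. Its probe set (1387184_at) read 7.05, 8.30 and 7.48 in vehicle rats, 8.18 and 7.50 at 30 mg/kg, 7.14, 6.78 and 7.05 at 100 mg/kg, and 7.16 and 6.80 at 200 mg/kg. The vehicle rats were spread over 1.24 log2 units, and their lowest lay within the range of the upper doses. Axin2 differed from vehicle by -0.62 at 100 mg/kg (SE 0.32, 95% interval -1.34 to 0.10, adjusted p = 0.324 in limma) and by -0.63 at 200 mg/kg (SE 0.35, interval -1.43 to 0.17, adjusted p = 0.489). At 30 mg/kg the log2 fold change of Axin2 was 0.23 (SE 0.35). With vehicle rat 2 left out, the difference at 100 mg/kg was -0.27.

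Prom1, a membrane protein of stem and dividing crypt cells, read 8.40, 8.98 and 9.14 in vehicle rats, 9.20 and 8.42 at 30 mg/kg, 8.32, 8.26 and 8.43 at 100 mg/kg, and 8.83 and 8.54 at 200 mg/kg (1368008_at). The 3 rats at 100 mg/kg were close together, and vehicle rat 1 fell among them. Prom1 had a log2 fold change of -0.51 at 100 mg/kg (SE 0.25, 95% interval -1.07 to 0.06, adjusted p = 0.309 in limma), and its differences from vehicle were -0.04 at 30 mg/kg and -0.16 at 200 mg/kg (SE 0.28 each). When limma weighted the arrays by their quality, Prom1 (-0.62, adjusted p = 0.0427) and Axin2 (-1.08, adjusted p = 0.0267) were called at 100 mg/kg. That fit called 3291 of the 17702 probe sets tested.

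Myc, the growth and cell cycle regulator, and Cd44, the hyaluronan receptor of crypt cells, had smaller mean differences from vehicle than Lgr5, Axin2 and Prom1 at 100 and 200 mg/kg, but not at 30 mg/kg, where Myc differed most of the 6. Myc (1368308_at) read 6.62, 7.15 and 7.26 in vehicle rats, 6.45 and 6.65 at 30 mg/kg, 7.11, 6.99 and 6.74 at 100 mg/kg, and 7.30 and 6.68 at 200 mg/kg. Its values overlapped with vehicle at each dose. The log2 fold change of Myc was -0.46 at 30 mg/kg (SE 0.25, 95% interval -1.03 to 0.11), -0.06 at 100 mg/kg (SE 0.22) and -0.02 at 200 mg/kg (SE 0.25).

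Cd44 was read by 2 probe sets, whose values correlated across the 10 arrays with r = 0.08. The brighter one (1387952_a_at) read 7.58, 7.42 and 7.32 in vehicle rats, 7.65 and 7.15 at 30 mg/kg, 7.65, 7.42 and 7.60 at 100 mg/kg, and 7.53 and 7.29 at 200 mg/kg. The other (1368921_a_at) read 7.16, 7.60 and 7.46 in vehicle rats, 7.43 and 6.86 at 30 mg/kg, 7.17, 7.09 and 7.01 at 100 mg/kg, and 7.22 and 7.43 at 200 mg/kg. At 100 mg/kg the 2 probe sets pointed in opposite directions, with log2 fold changes of 0.11 (95% interval -0.26 to 0.49) and -0.32 (interval -0.73 to 0.10). Both intervals include 0.

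**Figure D2:**
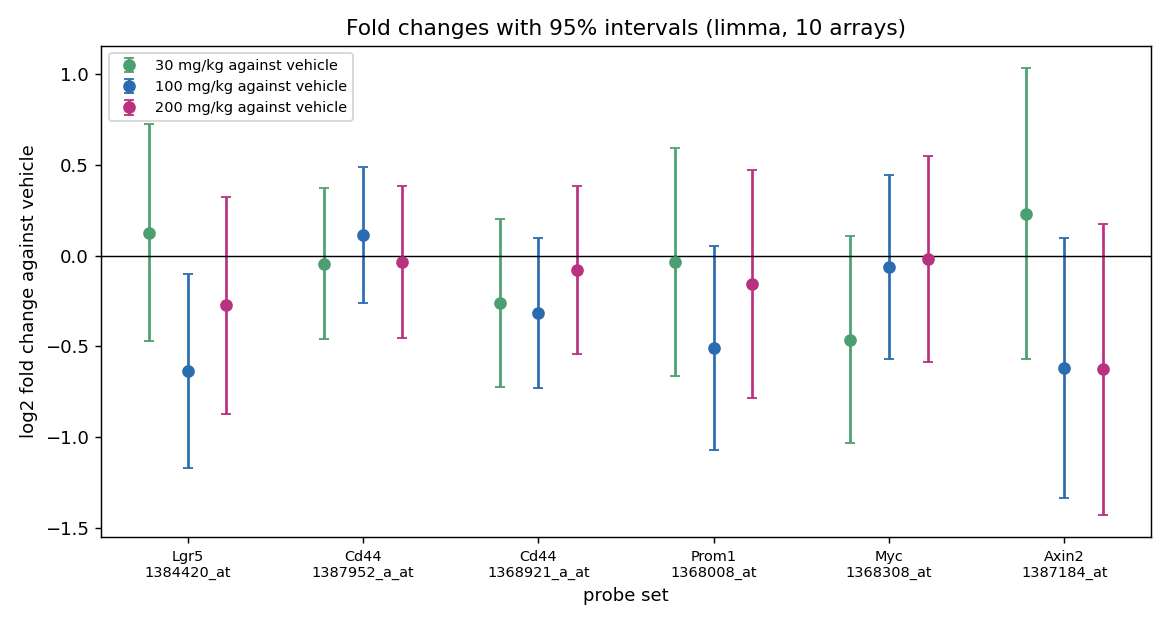
Log2 fold change against vehicle (y axis) of the 6 tested probe sets (x axis) at 30, 100 and 200 mg/kg, with 95% intervals from limma over 10 arrays. All intervals reach across 0 except that of Lgr5 at 100 mg/kg (-1.17 to -0.10).

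Other genes of the crypt base were described beside them. Of 15 such genes, 8 had a probe set bright enough to be tested, and none was called at any dose by limma (lowest adjusted p 0.167 at 100 mg/kg and 0.325 at 200 mg/kg). All 8 were below vehicle at 100 mg/kg, with a median log2 fold change of -0.61, and all 8 at 200 mg/kg, with a median of -0.35, against 52.2% and 52.9% of all genes. At 30 mg/kg all 8 were above vehicle, with a median of 0.16. At an unadjusted p of 0.05 or less, 4 of the 8 were lower at 100 mg/kg, where 18.0% of all probe sets were picked in either direction, and 1 of the 8 at 200 mg/kg, where 12.4% were.

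Rgmb, a BMP co-receptor, read 7.25, 7.46 and 7.18 at 100 mg/kg, against 7.74, 8.56 and 8.64 in vehicle rats, a log2 fold change of -1.02 (SE 0.27). Smoc2, a secreted matrix protein of stem cells, read 8.97, 8.98 and 8.89 at 100 mg/kg, against 9.03, 10.1 and 10.4 in vehicle rats, a log2 fold change of -0.90 (SE 0.33). Lrig1, a brake on growth factor receptors in stem cells, differed by -0.71 (SE 0.25), and Slc12a2, an ion cotransporter of crypt cells, by -0.62 (SE 0.26). Vehicle rat 1 was the lowest vehicle rat for all 4 of these genes. Leaving it out raises their vehicle mean, so that run could only widen their differences below vehicle. Without it the medians of the 8 genes were -0.84 at 100 mg/kg and -0.56 at 200 mg/kg. At 30 mg/kg 7 of 8 were then below vehicle with a median of -0.02, so the direction at 30 mg/kg turned. Without vehicle rat 2 the medians were -0.58 at 100 mg/kg (7 of 8 below) and -0.31 at 200 mg/kg (8 of 8). Without vehicle rat 3 they were -0.42 and -0.19, with 8 of 8 below at both doses.

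Differences of the Wnt pathway genes lay on both sides of vehicle, and none was called at any dose. Of the ligands, Wnt2b and Rspo3 were bright enough to be tested and differed by 0.22 and -0.14 at 100 mg/kg. Of 8 tested receptors, 5 were above vehicle at 100 mg/kg and 3 below. Lgr4, the R-spondin receptor related to Lgr5, read 7.69 and 7.71 at 200 mg/kg, against 7.36, 6.72 and 5.41 in vehicle rats, and its log2 fold change was 1.20 (limma SE 0.47 and adjusted p = 0.35). Fzd2, a Frizzled receptor, differed by -1.03 at 100 mg/kg (SE 0.27, adjusted p = 0.166 in limma) and Fzd1 by -0.70 at 200 mg/kg (SE 0.20, adjusted p = 0.25). Vehicle rat 3 was the lowest array for Lgr4.

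Of 11 tested signal transducers, 3 were above vehicle and 8 below at 100 mg/kg, and their medians stayed near 0 at each dose (0.04, -0.02 and -0.09 at 30, 100 and 200 mg/kg). Apc, part of the complex that destroys beta-catenin, differed by 0.27 at 100 mg/kg (SE 0.11). All 4 tested Wnt inhibitors were below vehicle at the 2 upper doses, with medians of -0.33 and -0.70. They were Nkd1, a feedback inhibitor inside the cell that differed by -0.72 at 200 mg/kg (SE 0.22), and the secreted Frzb (-0.72, SE 0.23), Dkk3 (-0.68, SE 0.22) and Sfrp1 (-0.61, SE 0.22). Among 8 other tested Wnt targets, 6 were above vehicle at 100 mg/kg (median 0.16) and 6 at 200 mg/kg (median 0.40). The transcription factor Jun differed by 0.70 at 100 mg/kg (SE 0.32), the vessel growth factor Vegfa by 0.55 (SE 0.26), and Fosl1, a partner of Jun, by 0.63 at 200 mg/kg (SE 0.25). Lower on average was Ccnd1, the G1 cyclin, which read 8.04, 8.21 and 7.93 at 100 mg/kg, against 8.18, 8.83 and 9.37 in vehicle rats.

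Of the neighbouring pathways, Notch had 6 of 9 tested genes above vehicle at 100 mg/kg with a median of 0.00. Hes1, the Notch target that holds cells in the dividing state, differed by -0.40 at 100 mg/kg and -0.41 at 200 mg/kg (SE 0.20 and 0.23). On the other side of vehicle, Adam10 differed by 1.13 and 1.11 at these doses (SE 0.55 and 0.61). Dll1 differed by 0.84 and 0.88 (SE 0.58 and 0.65), and Hey1 by 0.25 and 0.07 (SE 0.19 and 0.22). The BMP list had 7 of 13 above vehicle at 100 mg/kg (median 0.16) and 6 of 13 at 200 mg/kg (median -0.04). Its ligand Bmp4 read 7.69, 7.67 and 7.70 at 100 mg/kg, against 7.02, 6.78 and 7.12 in vehicle rats (log2 fold change 0.71, SE 0.14, adjusted p = 0.121 in limma). At 200 mg/kg Bmp4 differed from vehicle by only 0.18 (SE 0.15), and from 100 mg/kg by -0.53 (SE 0.15). Grem1, a BMP antagonist made below the crypts, read 8.24, 7.96 and 7.58 at 100 mg/kg, against 8.57, 9.06 and 9.36 in vehicle rats, and its log2 fold change was -1.07 (limma SE 0.24 and adjusted p = 0.143). It was also lower at 200 mg/kg by the point estimate, at -1.06 (SE 0.27). Of 5 tested Paneth cell genes 4 were below vehicle at 100 mg/kg, with a median of -0.22; the defensin Defa24 differed by -0.22 (SE 0.13) and the lysozyme Lyz2 by -0.09 (SE 0.12).

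**Figure D3:**
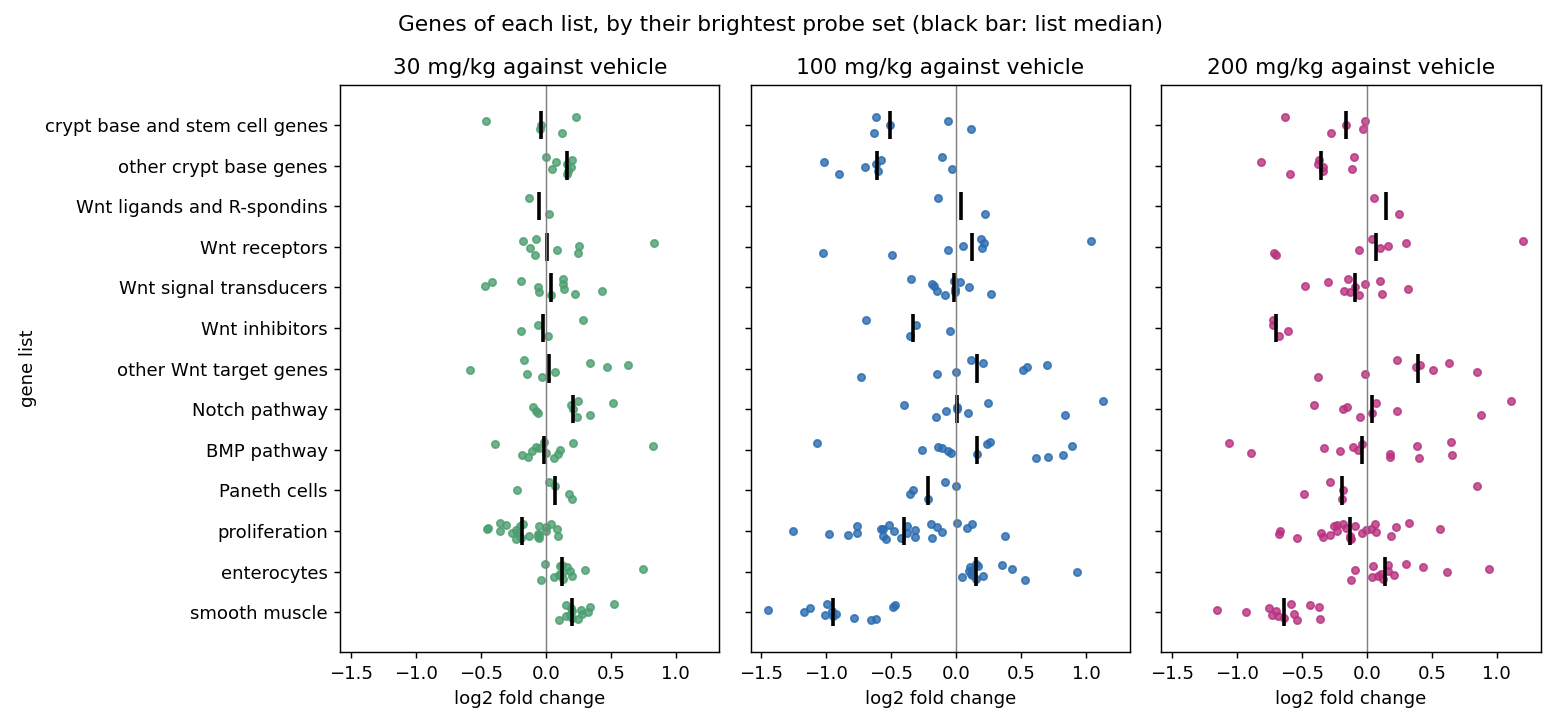
Log2 fold change against vehicle (x axis) of each tested gene in 13 lists (y axis) at 30, 100 and 200 mg/kg, each gene by its brightest probe set, with the list median as a black bar. The 8 other crypt base genes (median -0.61) and the 13 smooth muscle genes (median -0.95) all lie below 0 at 100 mg/kg.

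Markers of other parts of the gut wall also differed on average in these arrays. All 13 tested smooth muscle genes were below vehicle at the 2 upper doses (medians -0.95 at 100 mg/kg, -0.64 at 200 mg/kg), none was called, and their summed linear intensity ranged from 20039 to 31886 in vehicle rats, 28993 to 35156 at 30 mg/kg, 15841 to 16081 at 100 mg/kg and 15968 to 21250 at 200 mg/kg. Of 24 tested proliferation genes 19 were below vehicle at 30 mg/kg (median -0.18), 20 at 100 mg/kg (median -0.40) and 17 at 200 mg/kg (median -0.13). Their sums were 5407 to 7406 in vehicle rats, 4701 to 7154 at 30 mg/kg, 4654 to 5105 at 100 mg/kg and 4768 to 6710 at 200 mg/kg. All 14 tested enterocyte genes were above vehicle at 100 mg/kg (median 0.15), with sums of 42150 to 54024 in vehicle rats and 52614 to 58787 at 100 mg/kg. No tested gene of these 3 lists was blank on any array.

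Of the remaining lists, neurons and glia had 6 of 7 tested genes below vehicle at 100 mg/kg (median -0.89), fibroblasts 6 of 8 (median -0.45) and liver transcripts 5 of 7 (median -0.75). Above vehicle at that dose were 4 of 4 mast cell genes (median 1.14), 4 of 4 macrophage and granulocyte genes (0.94), 7 of 8 T and NK cell genes (0.78), 4 of 4 B and plasma cell genes (0.46), 6 of 8 goblet cell genes (0.38) and 7 of 9 enteroendocrine genes (0.27). Tuft cell (2 of 5 above) and endothelial genes (3 of 6 above) had medians of -0.01 and -0.06, and the 1 tested pancreas gene was at -0.47. None of these genes was called. For the liver transcripts Ttr, Serpina1, Apoh and Fga, vehicle rat 1 was the highest vehicle rat (for Ttr 8.81, against 7.60 and 7.24). The summed intensity of the mast cell genes was 966 to 1114 at 100 mg/kg, against 213 to 466 in vehicle rats. It was 212 to 216 at 30 mg/kg and 272 to 356 at 200 mg/kg. That of the neuron and glia genes was 322 to 379 at 100 mg/kg, against 486 to 801 in vehicle rats. It was 858 to 882 at 30 mg/kg and 367 to 431 at 200 mg/kg. The part of these cell types in the values of the crypt base genes was not tested.

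A score was made for the smooth muscle, proliferation and enterocyte lists only, averaging over the genes of each list the log2 value minus that of the vehicle group. By the smooth muscle score the arrays fell into 2 sets: 6 arrays from -0.90 to -0.48, which were the 5 arrays of the 100 and 200 mg/kg groups and vehicle rat 1, and 4 arrays from 0.08 to 0.41. By the proliferation score they also fell into 2 sets, 6 arrays from -0.50 to -0.23 and 4 arrays from 0.03 to 0.21. The lower set held all 100 mg/kg rats, vehicle rat 1, rat 2 of the 30 mg/kg group and rat 2 of the 200 mg/kg group. For these 2 scores a relation with the crypt base genes was therefore computed only within the set of 6 arrays, and for the enterocyte score over all 10 arrays.

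Of the 15 relations between 5 genes and 3 scores, none passed after Benjamini-Hochberg adjustment. The strongest was between Prom1 and the enterocyte score (Pearson r = -0.77, permutation p = 0.00889, adjusted p = 0.133; Spearman rho = -0.52, permutation p = 0.132). Without the 2 arrays farthest from the median score r was -0.80 (exact permutation p = 0.0227, adjusted p = 0.34). Within the 6 arrays of the lower smooth muscle set, Prom1 gave r = 0.67 (exact permutation p = 0.118, adjusted p = 0.501; rho = 0.71, exact p = 0.136) and Axin2 gave r = 0.47 (exact p = 0.278, adjusted p = 0.694; rho = 0.54, exact p = 0.297). The sets were defined after the values were seen: with every score taken over all 10 arrays, as first designed, 5 of the 15 relations passed, 3 of them with the smooth muscle score and 1 with each of the others.

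**Figure D4:**
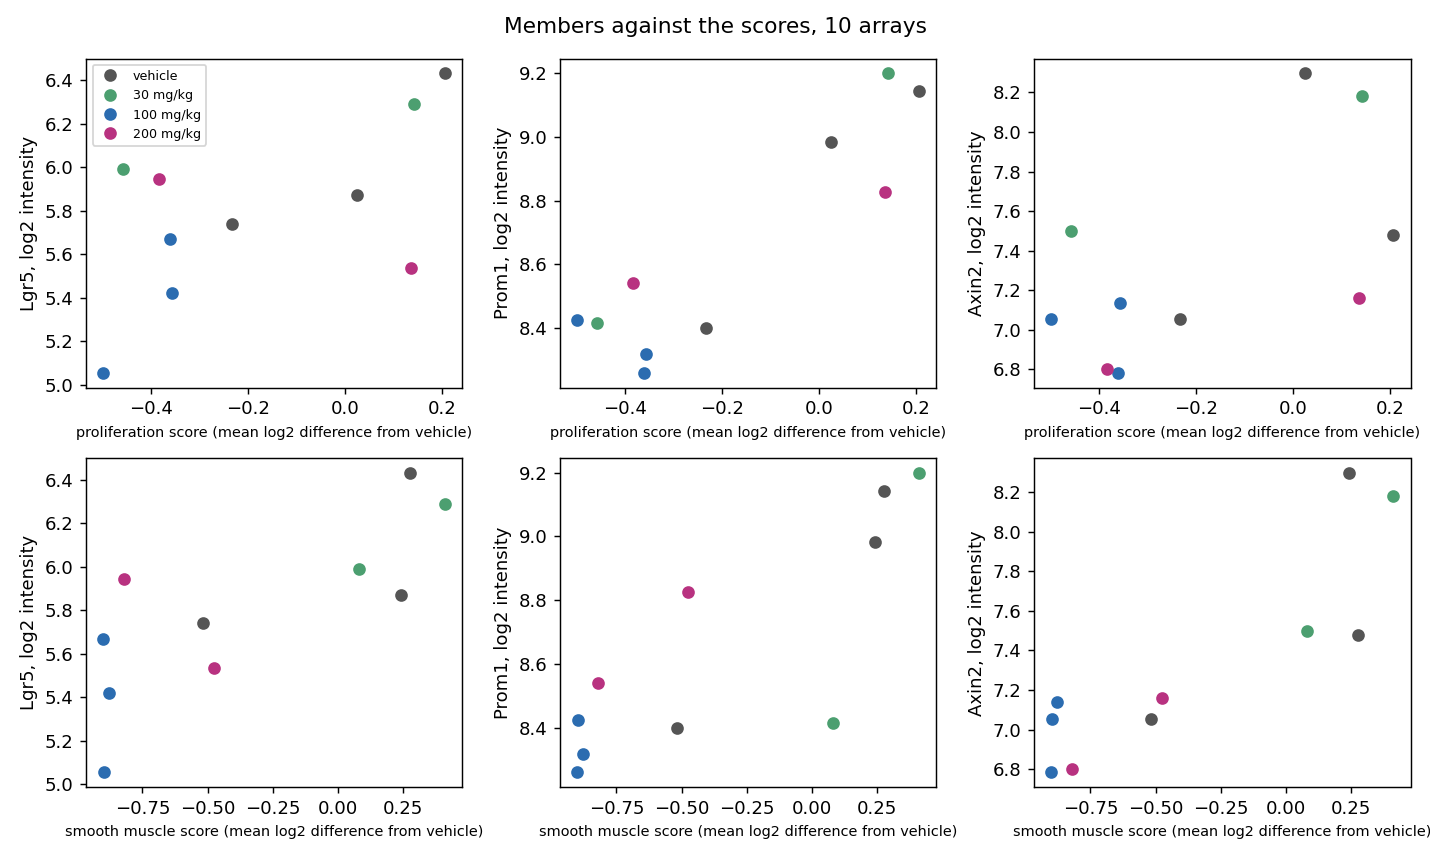
Log2 intensity of Lgr5, Prom1 and Axin2 (y axes) against the proliferation score (upper row) and the smooth muscle score (lower row) of each array, both as mean log2 differences from vehicle (x axes); points are rats, coloured by dose. The arrays form a lower set of 6 and an upper set of 4 by each score, with a gap of 36.8% of the range by proliferation and 42.4% by smooth muscle.

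The crypt base genes varied unevenly among themselves. Across the 10 arrays Prom1 and Axin2 had r = 0.75, Lgr5 and Prom1 r = 0.66 and Lgr5 and Axin2 r = 0.49, whereas Myc had r between -0.11 and 0.17 with the 4 others. Cd44, by its brighter probe set, had r = -0.45 with Lgr5, 0.04 with Prom1 and 0.06 with Axin2. These r values were taken across arrays that differ in dose and in gut wall markers such as the smooth muscle score, and neither was separated out. Among 10103 genes, those with the pattern most like Lgr5 over the 10 arrays were Cep15 (r = 0.97) and Arhgef26 (r = 0.94). For Prom1 they were Hmga1 and Stard5 (r = 0.97 each), for Axin2 Gprasp1 and Zscan21 (r = 0.96 each), for Cd44 Zdhhc6 (r = 0.97) and Tspan33 (r = 0.87), and for Myc Vac14 and Arpc5 (r = 0.87 each). The highest r among so many genes over only 10 arrays is high by selection alone. No chance level was computed, so these genes are named only as a description.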

How the data were processed

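Jejunum RNA of 10 rats was measured, 1 array each. The deposited table holds log10 intensities for 29559 probe sets, made by the authors in Rosetta Resolver 7.2 with its error model; probe summary, background correction and scaling are not given in the sources used here, and the log base was read from the values. Blanks covered 11.0% to 11.3% of probe sets per array. A second deposited table holds the authors' fold changes and was not used. Values were converted to log2 and probe sets named from the platform annotation (19952 with 1 gene, 428 with several, 9179 with none).

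Probe sets in the dimmest 40% by mean were left out (lowest mean kept 4.89), and 17736 were fitted with limma 3.58.1 in R 4.3.3, 1 mean per group over 10 arrays, two-sided. The brightest probe set stood for each gene. Correlations used 100000 permutations (exact for 6 or fewer arrays, and for 8) in Python 3.11.15 with scipy 1.17.1; the design had them over all 10 arrays, and the restriction to a set of 6 where the largest gap in a score exceeded 1/3 of its range was chosen after the values were seen. From each list the 4 genes with the smallest p were eligible to be named. The scripts were tested on simulated data. Same-numbered rats are different animals and their deviations correlated with r from -0.31 to 0.24, so numbers were not used to pair arrays. The number of arrays limits the precision. Genes and lists were chosen with earlier results of these data known. Alternatives were other filters, floors, a pseudocount, quantile and median scaling, array weights, a replicate block, a standard t-test (named in the methods for general statistics) and leaving out each rat.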

Additional observations from a re-analysis of the deposited data

How the results depend on the processing

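None of the 6 tested probe sets was called under any alternative run, except with array weights, where 2 were called at 100 mg/kg. That fit called 3291 of the 17702 probe sets tested at 100 mg/kg. The replicate block, by rat number, gave 0 called at each dose and changed no call; with it the log2 fold change of Prom1 at 30 mg/kg was 0.063. With array weights Axin2 was at -0.22 at 30 mg/kg and 0.00069 between 200 and 100 mg/kg. The causes were not tested.

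Leaving out each rat in turn turned the direction of small log2 fold changes. At 30 mg/kg the ranges were -0.024 to 0.33 for Lgr5, -0.30 to 0.21 and -0.55 to 0.024 for Cd44 (1387952_a_at and 1368921_a_at), -0.43 to 0.36 for Prom1 and -0.11 to 0.58 for Axin2. At 100 mg/kg Myc ranged from -0.26 to 0.061. At 200 mg/kg the ranges were -0.16 to 0.090 and -0.20 to 0.024 for Cd44 and -0.33 to 0.29 for Myc. Between 200 and 100 mg/kg they were -0.26 to 0.36 for Myc and -0.19 to 0.17 for Axin2. At 100 mg/kg Lgr5 (-0.78 to -0.43), Prom1 (-0.73 to -0.36) and Axin2 (-0.90 to -0.27) kept their sign.

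Without the 2 arrays farthest from the median score, r turned to -0.76 for Lgr5 with proliferation and to -0.68 for Cd44, -0.49 for Myc and -0.36 for Axin2 with smooth muscle, each over 4 arrays. In the family as designed, with all 10 arrays for every score, the relation of Prom1 with the enterocyte score (r = -0.77) passed (adjusted p = 0.027, permutation), against 0.133 as reported, so the calls among these relations depend on that choice. With the 60% dimmest probe sets left out Lgr5 had no value, and Ascl2 had none in the tested set.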
